A study of Rattus norvegicus with 4 samples.

Results

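The subject is 9 genes grouped here as targets of the tumour suppressor p53, among 16581 rat genes that could be named on the array. They are Cdkn1a, Bax, Mdm2, Ccng1, Gadd45a, Gadd45b, Btg1, Btg2 and Bbc3, and the grouping does not mean that each is equally well established as a target. They were taken by their symbol, through the RefSeq transcript that each probe was designed on, and together they have 11 of the 45598 gene probes. They were chosen by their signals on these same arrays, with the calls and the spread between cultures already known, so everything below on the 9 genes is a description, and no test supports a difference of theirs. The cells were NR8383, a line of macrophages from the lung lavage of a normal rat, used after 20 passages and grown for 48 h. Every culture had received NRCWE006, a multi-walled carbon nanotube, at 1 cm2 of particle surface per cm2 for 4 h, and 4 biological replicates make up the single group. Cultures without nanotubes were not analysed here, so no value is an effect of the nanotubes. What can be asked is which of these genes gave a measurable signal in the exposed cells and how much each differed between the 4 cultures.

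The p53 protein is a transcription factor that is stabilised when DNA is damaged or a cell is under stress. Its targets halt the cell cycle (Cdkn1a, Ccng1, Gadd45a, Btg2), start cell death through mitochondria (Bax, Bbc3) or switch p53 itself off again (Mdm2). Several of them also answer to other signals, such as stress kinases, NF-kB or growth factor withdrawal, and in macrophages Cdkn1a is also known to go up when cells stop dividing and differentiate.

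The binding pattern of p53 is a pair of half-sites, and 1 half-site was looked for in the 250 bases before the RefSeq start of each gene (assembly GRCr8), where 7 of the 9 members matched an entry by symbol. Windows from Cdkn1a, Ccng1 and Gadd45a each held 1 match to the p53 half-site, a pattern of 10 letters that reads the same on both strands, and those from Mdm2, Gadd45b, Btg1 and Btg2 held none. Of all 33469 windows of this length, 2221 (6.64%) held at least 1 match. A match is a run of letters and not a measured binding site, and no match says nothing about sites outside the window. The 3 windows with a match are shown, and below them that of Btg1, the only gene without a match that was well above background on all arrays. Whether a match goes with the level of a gene was not tested. Capitals mark the half-site.
Cdkn1a, chr20:7150682-7150931, plus strand: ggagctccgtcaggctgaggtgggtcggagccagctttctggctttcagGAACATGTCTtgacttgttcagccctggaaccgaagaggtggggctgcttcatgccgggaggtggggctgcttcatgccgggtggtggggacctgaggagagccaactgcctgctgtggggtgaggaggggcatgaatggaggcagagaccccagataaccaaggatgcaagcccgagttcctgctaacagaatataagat
Ccng1, chr10:25684877-25685126, minus strand: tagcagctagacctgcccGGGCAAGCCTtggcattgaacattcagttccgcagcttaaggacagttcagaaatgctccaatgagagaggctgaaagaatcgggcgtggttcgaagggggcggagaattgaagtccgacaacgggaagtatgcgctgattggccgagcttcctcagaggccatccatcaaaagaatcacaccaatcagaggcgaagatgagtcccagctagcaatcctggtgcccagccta
Gadd45a, chr4:97486800-97487049, minus strand: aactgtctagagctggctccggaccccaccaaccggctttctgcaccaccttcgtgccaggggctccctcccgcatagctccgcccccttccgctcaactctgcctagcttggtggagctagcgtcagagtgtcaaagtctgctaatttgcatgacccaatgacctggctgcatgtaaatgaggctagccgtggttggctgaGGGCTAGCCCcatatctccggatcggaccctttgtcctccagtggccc
Btg1, chr7:33227899-33228148, plus strand: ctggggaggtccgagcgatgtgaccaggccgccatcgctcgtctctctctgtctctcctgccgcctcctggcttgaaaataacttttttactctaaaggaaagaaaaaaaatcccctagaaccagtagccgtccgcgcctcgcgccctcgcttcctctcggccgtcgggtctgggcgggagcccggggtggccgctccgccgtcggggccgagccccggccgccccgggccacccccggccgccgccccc
The Cdkn1a match, GAACATGTCT, begins 201 bases before the start, the Ccng1 match 232 bases and the Gadd45a match 48 bases before it.

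Each culture was measured on 1 array of 58717 gene spots, all 4 on 1 slide with 1 scan time. That there are only 4 arrays limits how precise any value is. Signals are spot intensities on a linear scale after background subtraction. A call on an array required more than 50% of a probe's spots to be flagged well above background, and a gene was detected when a probe of it was called on all 4 arrays. That held for 3208 probes (7.04%) and for 1946 of 16419 named genes with a value on every array (11.9%). Replicate 4 stood apart from the others. Its negative control spots had a median signal of 4.61 against 2.98 to 3.36, 656 of its gene spots were non-uniform against 9 to 34, and 2952 probes were called on it alone against 96 to 918. Whether these features have a part in the differences below was not tested. Of the macrophage markers, 7 of 17 were detected, among them Cd68 and Lyz2, and 7 were called on no array: Csf1r, Mrc1, Adgre1, Itgam, Cd14, Msr1 and C1qa. On the scaled log2 levels described below, Cd68 and Spi1 stood 1.1 and 1.45 above the mean of the other arrays on replicate 4, each on a single spot, and the other 5 detected markers lay between -0.27 and 0.03. Spi1 is named here after its values were seen. None of the lung epithelium, fibroblast, lymphocyte and granulocyte markers was detected, out of 10, 8, 6 and 7, beside 11.9% of all named genes. With lists this short and that share, little is read from their absence. The lung epithelium markers Sftpb and Krt8 were called on some of the arrays. Of 6 endothelial markers Vwf was detected, read from a single spot, 0.78 above the mean of the other arrays on replicate 4, and Cdh5 was called on some of the arrays. The part of these markers in the results below was not tested. As each sample was a whole culture, fewer cells with a transcript and less of it per cell cannot be told apart.

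Of the 9 genes, 4 were detected on all arrays (44.4%, beside 11.9% of all named genes): Cdkn1a, Bax, Btg1 and Bbc3. Gadd45a was called on replicates 3 and 4 only, and Mdm2, Ccng1, Gadd45b and Btg2 on no array, as were 70.9% of all named genes. Among the detected ones, Cdkn1a and Bax were highest on replicate 4, except when scaled by all gene probes, and Btg1 was lowest there. Bbc3 differed 1.37-fold between its highest and lowest array in the scaling used here, but 2.83-fold after quantile normalization and 3.19-fold when scaled by all gene probes. Among all detected genes 30.1% were highest on replicate 4 and 39.6% lowest. For 3 of these 4 genes the highest array lay more than 2-fold above the lowest, beside 15.3% of all 1946 detected genes and 6.23% of those whose probe is printed 10 times. The genes were chosen partly for this spread, so no more is read from that count. The plot of spot signals shows every spot of the 11 probes.

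**Figure D1:**
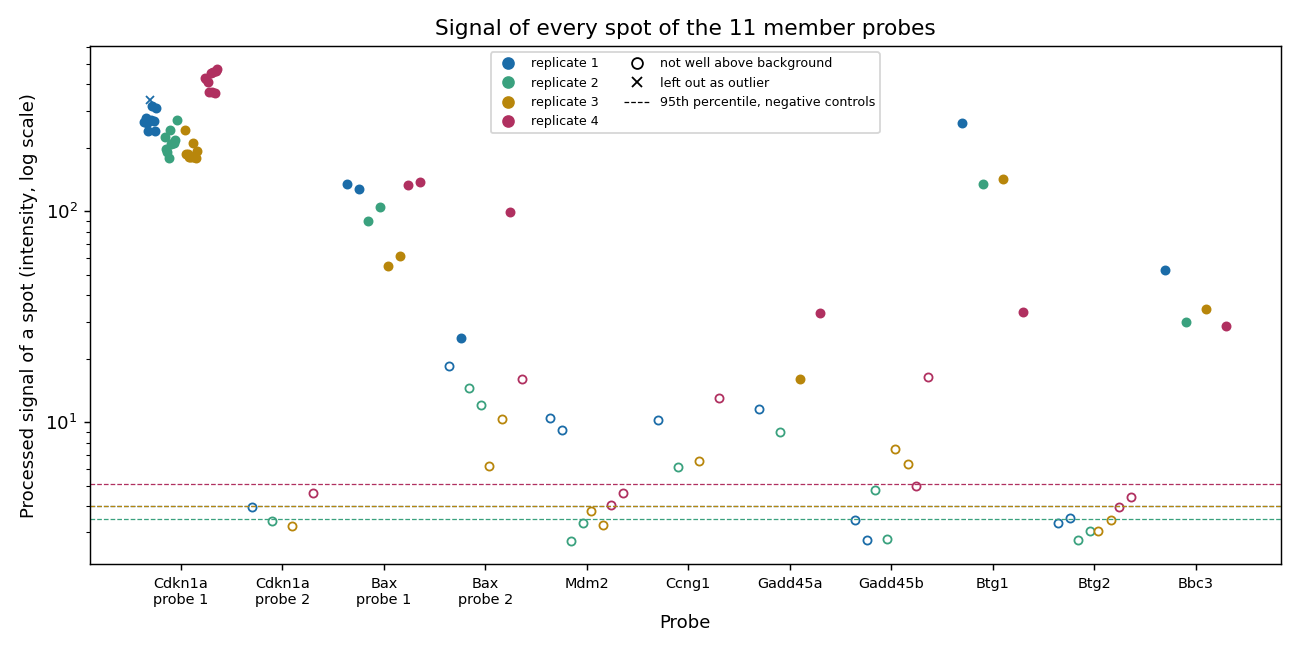
Processed signal of each spot (intensity, log axis) for the 11 probes of the 9 p53 targets, by replicate. Filled points were well above background and open points were not, a cross is a spot left out as an outlier, and dashed lines give the 95th percentile of each array's negative control spots (3.48 to 5.10). The 10 Cdkn1a spots of replicate 4 (366 to 471) lie above all spots of the other arrays, while the single Btg1 spot of replicate 4 (33.5) lies below those of the others.

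Cdkn1a encodes p21, which binds and inhibits cyclin-dependent kinases and so stops cells before they copy their DNA or divide. Its brighter probe is printed 10 times on each array and gave mean signals of 271, 215, 192 and 420 on replicates 1 to 4, with all 10 spots well above background on every array. The used spots ran from 240 to 316 on replicate 1, where 1 of the 10 was left out as an outlier, from 180 to 272 on replicate 2, from 179 to 244 on replicate 3 and from 366 to 471 on replicate 4. The spots of replicate 4 thus did not overlap those of any other array, while the spots of the other arrays overlapped each other.

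Levels were set on the log2 scale relative to the 75th percentile of detected probes on the same array, which stood at 384, 281, 236 and 223 on replicates 1 to 4. On this scale Cdkn1a had -0.50, -0.39, -0.30 and 0.91, a mean of -0.07 ± 0.66 (SD, n = 4). The SD of its spots within an array was 0.135, 0.171, 0.140 and 0.144, beside a median spot SD of 0.140 to 0.211 over the 353 detected genes whose probe is printed 10 times. The distance between replicate 4 and the other arrays was therefore several times the spread of spots, but with 1 array per culture the spread of spots says nothing of how far cultures of 1 kind differ. Replicate 4 was 2.31-fold above the next highest array and 2.66-fold above the lowest. Among the other 3 arrays the highest lay 1.15-fold above the lowest. Scaled by all gene probes, the highest of the 4 arrays lay 1.35-fold above the lowest. Of the 1946 detected genes, 107 had a larger range than Cdkn1a, and of the 353 genes printed 10 times 3 did.

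A second Cdkn1a probe, built on the same transcript and printed once, was called on no array. Its signals of 3.97, 3.39, 3.21 and 4.62 on replicates 1 to 4 each lay below the 95th percentile of the negative controls of the same array (4.00, 3.48, 3.99 and 5.10). The pattern of Cdkn1a thus rests on 1 of its probes.

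The other cell cycle genes of the set were dimmer. Ccng1 encodes cyclin G1, a p53 target that feeds back on p53 through Mdm2. Its single spot had signals of 10.3, 6.16, 6.55 and 13.0 on replicates 1 to 4, well above background on none. All 4 values exceeded every used negative control spot of their array, so that Ccng1 would be detected if negative controls set the limit. Gadd45a encodes a small nuclear protein that binds p21 and the replication clamp PCNA, and signals to stress kinases. Its single spot had 11.5, 9.03, 16.0 and 33.0, with the scanner software's own error of the spot at 3.67, 3.03, 3.28 and 7.19, and only the last 2 were well above background. The Gadd45a signal was highest on replicate 4, as was that of the dim Ccng1 spot. Dim signals ran higher on that array in general. There, 75% of gene probes lay below 10.1, against 3.82 to 5.85 on the others, and the negative controls were raised as well. The share of dim probes that were highest on replicate 4 was not counted, so no pattern shared with Cdkn1a is read from Gadd45a.

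Gadd45b, a relative of Gadd45a that NF-kB and cytokines are known to switch on, had mean signals of 3.07, 3.63, 6.89 and 9.05 over its 2 spots, none well above background. On replicate 4 these 2 spots disagreed, with 5.01 and 16.4. Btg2, which restrains cell division and promotes the shortening of messenger RNA tails, had 3.44, 2.90, 3.23 and 4.19. Those values lay below the 95th percentile of the negative controls on all arrays, so nothing can be said of its order between cultures.

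Btg1 is a relative of Btg2 that is typical of resting cells and falls when cells enter the cycle. Its single spot was well above background on all arrays, with signals of 263, 135, 142 and 33.5 on replicates 1 to 4. The software's error of each spot was 26.5, 13.8, 14.5 and 5.09. The levels were -0.55, -1.06, -0.73 and -2.74, a mean of -1.27 ± 1.00 (SD, n = 4). Replicate 4 was the lowest, and replicate 1 lay 4.56-fold above it. The highest array lay 9.11-fold above replicate 4 after quantile normalization, 7.85-fold without scaling, 13.6-fold when scaled by all gene probes and 2.14-fold with a normexp background correction. Only 21 of the 1946 detected genes (1.08%) had a larger range. Among the other 3 arrays the highest was 1.43-fold above the lowest. As a probe of 1 spot, Btg1 has no check by a second spot or probe.

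A pair of the genes act in cell death. Bax encodes a protein that makes holes in the outer membrane of mitochondria. Its brighter probe has 2 spots, which were all well above background, with mean signals of 132, 97.2, 58.4 and 136 on replicates 1 to 4. The 2 spots were close on each array, at 128 and 135, 89.9 and 105, 55.3 and 61.7, and 133 and 138. The unscaled signals of replicates 1 and 4 overlap, so these arrays differ in Bax only after scaling. The scaled levels were -1.54, -1.53, -2.01 and -0.72, a mean of -1.45 ± 0.54 (SD, n = 4). Replicate 4 lay 1.76-fold above the next array and 2.45-fold above replicate 3, the lowest, and among the other 3 arrays the highest was 1.40-fold above the lowest. Of the detected genes, 144 had a larger range (7.40%).

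The second Bax probe, on the same transcript and also with 2 spots, was called on no array, since at most 1 of its 2 spots was well above background. Its mean signals were 21.5, 13.3, 8.02 and 39.9, with the highest on replicate 4 and the lowest on replicate 3, as for the first probe. On replicate 4, however, its spots read 99.0 and 16.0. Unscaled, the lower of these lies below both spots of replicate 1, at 18.5 and 25.0. Divided by the 75th percentile of its array it is 0.072, just above the highest spot of the other arrays at 0.0651.

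Bbc3 encodes PUMA, which frees Bax and its relatives from the proteins that hold them in check. Its single spot was well above background on all arrays, with signals of 52.9, 29.9, 34.3 and 28.6. The levels were -2.86, -3.23, -2.78 and -2.96, a mean of -2.96 ± 0.20 (SD, n = 4), and the highest array was 1.37-fold above the lowest. Of the detected genes, 61.2% had a larger range. The software's error of these spots was 6.11, 4.07, 4.61 and 6.63, and the unscaled signals of replicates 2, 3 and 4 differed by less than the largest of these.

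Mdm2 encodes the ligase that marks p53 for destruction and is itself a p53 target. Its 2 spots had mean signals of 9.79, 3.01, 3.52 and 4.33 on replicates 1 to 4, well above background on no array. Only replicate 1 exceeded the 95th percentile of its negative controls. Replicate 4, where the Cdkn1a signal was highest, did not, but no level can be given for a probe this dim.

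**Figure D2:**
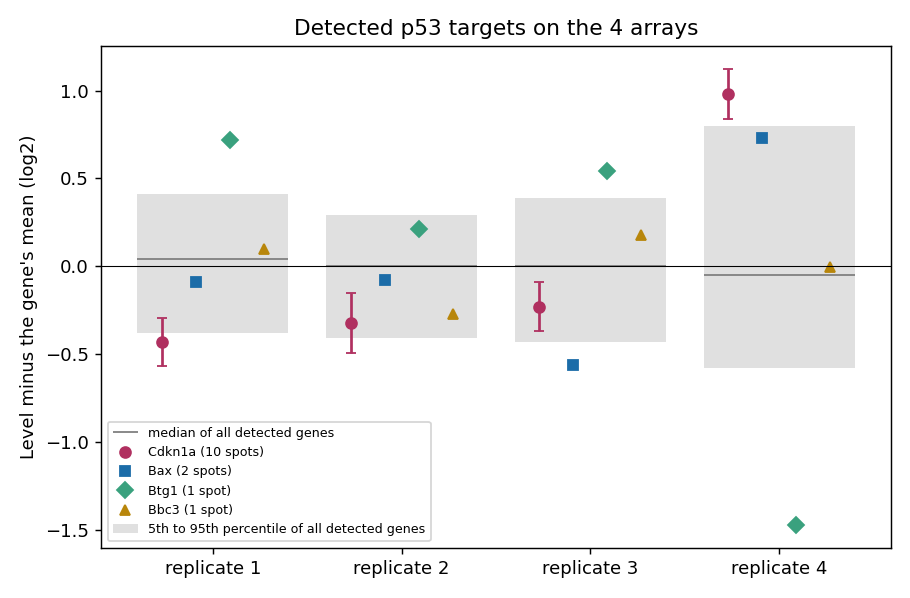
Log2 level of the 4 detected p53 targets on each array, minus the gene's mean over the 4 arrays, with the 5th to 95th percentile of all 1946 detected genes in grey and their median as a line. Error bars on Cdkn1a are the SD of its spots within the array (9 or 10 spots). On replicate 4 Cdkn1a lies above the grey bar, Bax inside it and Btg1 below it; scaled by all gene probes instead, Cdkn1a and Bax would be lower on replicate 4 than on the other arrays.

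How firmly replicate 4 differs depends on the scaling. Set against the mean of the other 3 arrays, the median of all detected genes lay at -0.07 in replicate 4, and Cdkn1a, Bax, Btg1 and Bbc3 lay at 1.38, 1.05, -1.89 and 0.07 relative to that median. After quantile normalization these were 1.76, 1.33, -2.53 and -0.88, and after a normexp background correction 1.01, 0.64, -0.96 and 0.01. Cdkn1a and Bax thus lay above the median gene and Btg1 below it under each of these, while Bbc3 changed sides. Scaled by the 75th percentile of all gene probes, which stood at 5.85, 3.82, 4.07 and 10.1 and so close to background, the median itself moved to -1.64. The levels of Cdkn1a and Bax in replicate 4 were then -0.26 and -0.59 against the other arrays, a reversed sign. As such a scaling shifts all genes of an array alike, values relative to the median gene are the same under it by construction.

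**Figure D3:**
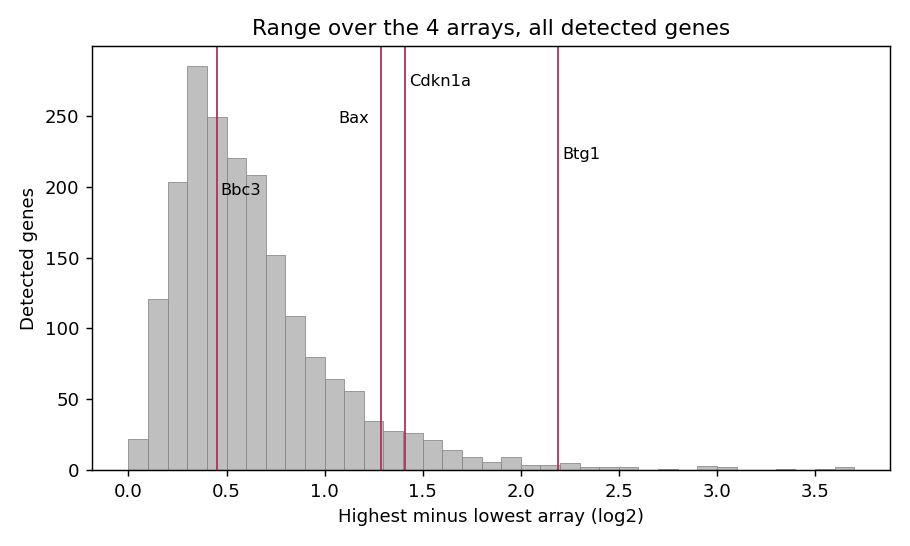
Number of detected genes by the difference between their highest and lowest array (log2, in steps of 0.1), with the 4 detected p53 targets as vertical lines. Bbc3 (0.45) sits in the bulk, near the median of 0.54, while Bax (1.29), Cdkn1a (1.41) and Btg1 (2.19) sit in the upper tail.

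The genes around these targets were read from 8 lists. In each list, the share detected is to be set beside 11.9% of all named genes. The share called on no array is to be set beside 70.9%. Of 29 other p53 targets measured, 3 were detected (10.3%, beside 11.9% of all named genes) and 21 were called on no array. The detected ones were Gdf15, a stress cytokine, Rps27l, a ribosomal protein relative that affects p53 stability, and Fdxr, a mitochondrial electron carrier. Gdf15 had levels of -1.20, -0.77, -1.09 and -1.23 on replicates 1 to 4, with no array apart. Rps27l, printed 10 times, had 0.67, 0.59, 0.58 and 0.62, a mean of 0.62 ± 0.04 (SD, n = 4). Its highest array was 1.06-fold above the lowest, in contrast with the 2.66-fold of Cdkn1a. Fdxr had -2.59, -2.51, -2.53 and -1.75 on a single spot. On replicate 4 it lay 0.79 above the mean of the other arrays, but only 0.21 above it after quantile normalization. Scaled by all gene probes it lay at -0.77. Sesn2, a sestrin that restrains growth signalling, had signals of 12.8, 7.26, 3.85 and 19.8 and was called on no array.

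Of 13 regulators of p53 and the DNA damage response, 1 was detected (7.69%, beside 11.9% of all named genes). On no array were 11 called, as were 70.9% of all named genes. The gene detected was Tp63, a p53 relative of epithelial cells, on 1 of its 3 probes and a single spot, with levels of -2.63, -2.49, -2.44 and -0.73. On replicate 4 it lay above the mean of the other arrays under every scaling tried, by 0.23 to 1.79.

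Among 15 relatives of the members (other inhibitors of cyclin-dependent kinases, and the GADD45, BTG and TOB families), 4 were detected (26.7%): Cdkn3, a phosphatase of Cdk1, Gadd45gip1, a mitochondrial ribosome protein that binds GADD45 proteins, Tob2, an antiproliferative relative of Btg1, and Ccni, cyclin I. Cdkn3 had levels of -2.09, -2.22, -2.47 and -2.91 and Tob2 -1.75, -2.25, -2.21 and -2.69. Ccni had -0.11, -0.65, -0.34 and -1.49. These 3 genes, each on a single spot, were lowest on replicate 4, as were Btg1 and 39.6% of all detected genes. Relative to the median gene on replicate 4, Cdkn3, Tob2 and Ccni lay at -0.58, -0.55 and -1.05. These were -1.43, -1.26 and -0.91 after quantile normalization and -0.17, -0.18 and -0.74 with normexp. Gadd45gip1 had -0.88, -0.36, -0.69 and -0.69. Cdkn2a, the locus of p16 and of the p53 activator ARF, was called on no array, with signals of 3.34, 3.02, 3.92 and 5.07.

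Cyclin-dependent kinases, which work with cyclins as partners, are the enzymes that p21 restrains. Of 15 cyclins and cyclin-dependent kinases, 4 were detected (26.7%, beside 11.9% of all named genes). Without replicate 4 the number was 9, as 5 more were called on the other 3 arrays. The share of all named genes under that looser rule is not given here, so no more is read from the 9. Cdk1, printed 10 times, had signals of 497, 363, 332 and 108 on replicates 1 to 4 and levels of 0.37, 0.37, 0.49 and -1.05. It was lowest on replicate 4, where Cdkn1a was highest except when scaled by all gene probes. Whether the levels of Cdk1 and Cdkn1a are linked was not tested. Ccnb2, a partner of Cdk1, had -1.23, -1.32, -1.45 and -1.82. Cdk4, with -2.13, -2.46, -1.96 and -2.27, and E2f1, with -2.24, -2.60, -2.87 and -2.71, lay at -0.01 and -0.07 relative to the median gene on replicate 4. Those values were -0.46 and -0.84 after quantile normalization, and 0.08 for both with normexp. The cyclin gene Ccnd3 was called on no array.

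Of 17 mitotic genes, 3 were detected (17.6%). Plk1, a mitotic kinase, had -1.63, -1.58, -1.73 and -2.77, and Kif20a, a motor protein of cell division, -0.53, -0.33, -0.32 and -0.96, both lowest on replicate 4. Ube2c, a ubiquitin-conjugating enzyme of mitosis, had -2.14, -2.08, -2.11 and -2.12. Cdc20, not called on any array, had signals of 13.9, 9.81, 10.5 and 4.11. Beside the 39.6% of all detected genes, 50.1% of those printed 10 times were lowest on replicate 4, so being lowest there is common. Relative to the median gene in replicate 4, Cdk1, Plk1, Kif20a and Ccnb2 lay at -1.39, -1.05, -0.49 and -0.41. After quantile normalization these were -1.11, -1.76, -0.17 and -0.51, and with normexp -1.15, -0.41, -0.42 and -0.26. Ube2c lay at 0.06, and at -0.29 and 0.14 under these 2 alternatives. Of the 7 detected genes of both lists, 6 thus lay below the median gene here, 7 after quantile normalization and 4 with normexp.

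In the BCL2 family, to which Bax belongs, 3 of 14 genes were detected (21.4%). Bak1, which makes holes in mitochondria like Bax, had levels of -1.83, -1.53, -1.58 and -0.97 and lay above the mean of the other arrays on replicate 4, as did Bax, except when scaled by all gene probes. It lay at 0.74 relative to the median gene there, and at 0.98 and 0.45 after quantile normalization and normexp. Bad, a sensor of survival signals, had -1.66, -1.32, -1.51 and -1.62, and Bnip3l, a receptor for the removal of mitochondria, -2.09, -2.70, -2.26 and -2.47. Bok was called on no array. Among 15 caspases and other death pathway genes, 2 were detected (13.3%). Diablo, an inhibitor of caspase inhibitors, had -2.15, -2.25, -1.99 and -2.52 and Tradd, an adaptor of death receptors, -2.14, -2.45, -1.98 and -2.66. Both were lowest on replicate 4, as were 39.6% of all detected genes, at -0.32 and -0.40 relative to the median gene. These were -0.93 and -1.09 after quantile normalization and -0.05 and -0.06 with normexp, where Diablo and Tradd lay 0.03 and 0.02 above the mean of the other arrays. Casp6 was called on no array.

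The integrated stress response, which slows translation and is known to raise Gadd45a, had 6 of 11 genes detected (54.5%). Atf4, its central transcription factor, printed 10 times, had -0.74, -1.15, -1.09 and -0.84. Ddit3, which encodes CHOP, had -1.08, -1.22, -1.82 and -1.42. Trib3, a pseudokinase downstream of both, had -2.70, -3.10, -2.95 and -2.03. On replicate 4 this gene, read from a single spot, lay 0.89 above the mean of the others, but only 0.1 above it after quantile normalization. Scaled by all gene probes it lay at -0.68. Chac1 was called on no array. The map of levels shows the 4 detected members and the 26 detected genes of the 8 lists side by side.

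**Figure D4:**
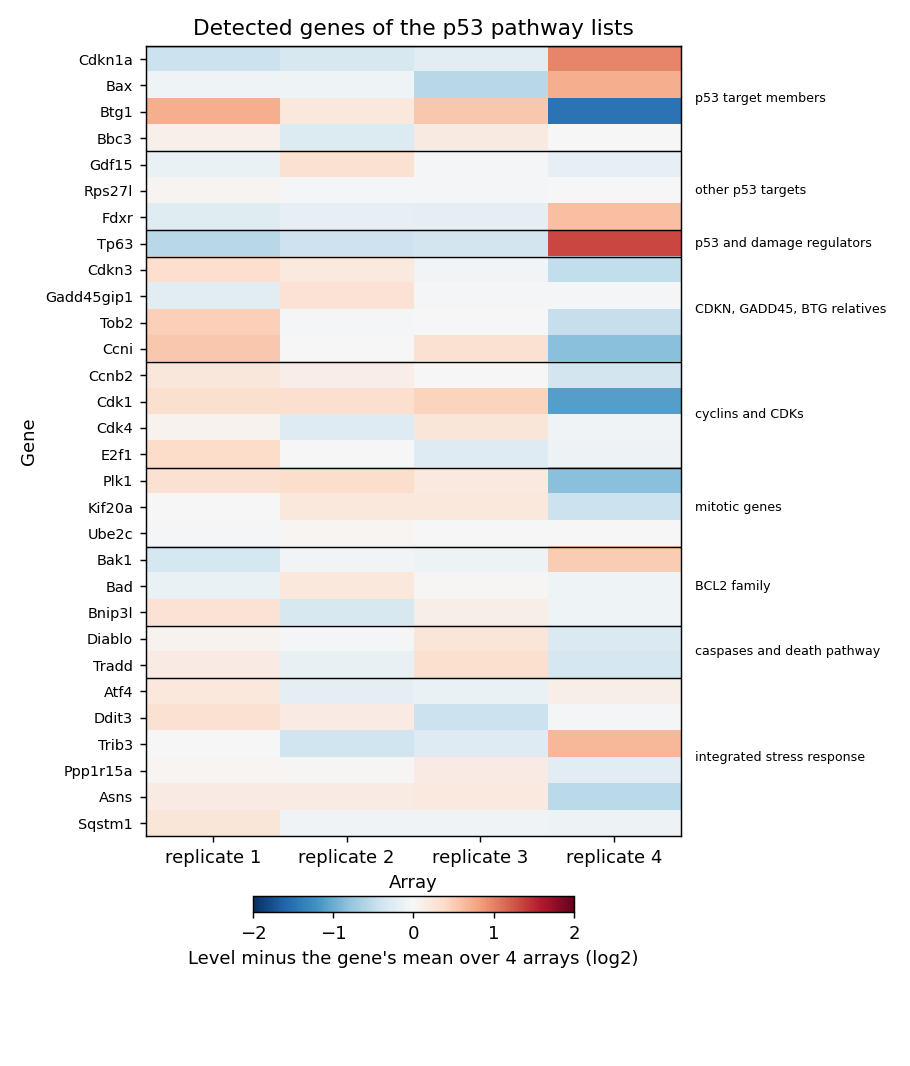
Log2 level minus the gene's mean over the 4 arrays (colour, from -2 to 2) for the 4 detected p53 targets and the 26 detected genes of the 8 lists, 1 row per gene and 1 column per array. Replicate 4 holds the strongest colours in both directions: high for Tp63 and Cdkn1a and low for Btg1 and Cdk1; scaled by all gene probes, Cdkn1a would be low there as well.

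Likeness to a member was measured as the root mean square difference between log2 profiles over the 4 arrays, each centred on its mean, among detected genes printed 10 times. It is a description over 4 arrays and mostly reflects replicate 4. Nearest to Cdkn1a among 352 genes were Tagln2, an actin-binding protein (0.11), Eif2s2, a subunit of an initiation factor (0.14), Shbg, a steroid-binding globulin (0.14), Ebp, an enzyme of sterol synthesis (0.15), Ltbr, a receptor of the tumour necrosis factor family (0.24), and Lgals1, a galectin (0.26). Shbg, for example, had levels of -1.89, -1.54, -1.82 and -0.36. Likeness was measured only in the scaling used here. Against the mean of the other arrays, Tagln2 and Eif2s2 lay at 1.07 and 1.1 on replicate 4, but at 0.11 and 0.4 after quantile normalization. Cdkn1a lay at 1.31 in both. Shbg, Ebp, Ltbr and Lgals1 lay at 1.34, 0.82, 0.92 and 0.8 after quantile normalization. Among the genes printed 10 times, 19.5% were highest on replicate 4. Nearest to Bax were Ltbr (0.12), Ebp (0.15) and Ncdn, a neuronal protein (0.21).

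Nearest to Btg1 were Cdk1 (0.28), the linker histone gene H1f0 (0.38) and Kmt5a, a histone methyltransferase (0.42). H1f0 had levels of -0.94, -1.24, -1.32 and -2.32. Nearest to Bbc3 in this scaling, where its range was 0.45 against 1.5 after quantile normalization, were Polr1d, a subunit of RNA polymerases (0.033), Akap8, a nuclear anchoring protein (0.055), and U2af1, a splicing factor (0.059).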

How the data were processed

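Messenger RNA of 4 NR8383 cultures (100 ng of total RNA each, labelled with Cy3) was hybridised to 1-colour Agilent arrays. The deposited spot intensity columns are scanner output; the submitters' processing notes name Agilent Feature Extraction 11.0.1.1. They hold a background-subtracted processed signal, its error, and the median signal and background, unscaled between arrays, per the file headers. Flags were used as deposited.

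Control spots (4259) and spots flagged non-uniform or population outlier (546 to 1296 per array) were left out. Log2 signals of a probe's spots were averaged and scaled by the 75th percentile over probes called on all arrays. The detected probe with the highest mean level gave a gene's value. RefSeq accessions without version (GRCr8) named 21109 of 45598 probes; the file headers name an older build, so no gene coordinates are given beyond the RefSeq windows.

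The members and lists were chosen with earlier results of these data known. All members were named, and of each list the first 3 detected genes (all, if at most 5) and the first 1 called on no array, plus the 6 nearest genes to Cdkn1a and 3 to each other detected member. 1 gene that this rule names is not reported here. With 1 group there was no comparison of conditions and no test of a difference; Dixon's outlier criterion served only to screen the named genes. Alternatives were other scalings, detection rules and spots, and leaving out each array. Scaling, the recovery of a change on replicate 4 and likeness were tested on simulated data. The simulated arrays differed by constant offsets and did not copy the raised background of replicate 4. The tools were limma 3.58.1 (normexp, offset 50) under R 4.3.3, and pandas 2.3.3 and numpy 2.4.6 under Python 3.11.15.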

Additional observations from a re-analysis of the deposited data

Results flagged for a closer look

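In 7 of the 39 named genes detected on all arrays, 1 replicate lay far from the other 3, with its gap to the nearest of them, as a share of the whole range, above the critical value of Dixon's test; chance gives about 1 in 20 such genes, and of all 1946 detected genes 149 (7.66%) showed it. Replicate 4 was the array apart in these 7. The gap was 0.855 of the range for Cdkn1a, 0.901 for Fdxr, 0.90 for Tp63, 0.882 for Ebp and 0.881 for Tagln2, which were high there relative to the median gene. It was 0.919 for Cdk1 and 0.877 for Plk1, which were low. Fdxr and Tp63 rest on 1 spot per array. Cdkn1a was chosen with its spread between the cultures known, and Ebp and Tagln2 were named for their likeness to it, as Cdk1 also was to Btg1, so for these the gap restates the values that chose them and is a description. Among detected genes of the lists and markers that the naming rule leaves out, and named here after their values were seen, the gap was also above that value for Asns (0.951, low on replicate 4), Spi1 (0.904, high on replicate 4) and Sqstm1 (0.906), where replicate 1 was the array apart, at 0.44 against 0.11 to 0.14.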

How the results depend on the processing

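No paired analysis was possible because the samples form 1 group. The 4 detected members were the same with all spots kept, with calls on at least 3 of 4 arrays and without any 1 array (4 to 4); negative controls as the limit added Ccng1 and Gadd45a, for 6. Genes of the 8 lists detected numbered 26, and 49 with the negative control limit, 34 on at least 3 arrays and 26 to 34 without 1 array. The share of all named genes under each of these other rules is not given here. The counts therefore show only how far detection depends on the rule. Leaving out an array also rescales the rest over the probes then detected. The range over arrays (log2) moved by more than the SD between arrays as follows. For Cdkn1a it was 1.41, 0.43 scaled by all gene probes, and 0.15 to 1.45 without 1 array, the lowest without replicate 4. For Bax it was 1.29, and 0.52 to 1.30 without 1 array, the lowest again without replicate 4. For Btg1 it was 2.19, 3.76 scaled by all gene probes, 1.1 with normexp, and 0.55 to 2.20 without 1 array, the lowest without replicate 4. For Bbc3 it was 0.45, 0.89 without scaling, 1.5 after quantile normalization, 1.67 scaled by all gene probes, 0.23 with normexp, and 0.18 to 0.45 without 1 array, the lowest without replicate 2. Replicate 4 minus the mean of the others reversed for Cdkn1a (-0.26) and Bax (-0.59) when scaled by all gene probes, a percentile close to background. The normexp offset of 50 shrinks log2 differences of dim probes by construction; other causes were not tested. Signal over background limits Mdm2, Gadd45b, Btg2 and the second Cdkn1a probe, which have no usable level.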
